A study of Arabidopsis thaliana with 40 samples.

Results

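The shoot apices of the photoperiod mutants co-2 and ft-2 were compared with those of Landsberg erecta (Ler) at day 5 after a move to long days, on 6 of the 40 arrays of the study (2 each for co-2, ft-2 and Ler). The co-2 group is mutant in CONSTANS and the ft-2 group in FT, and Ler is the accession in which both alleles are known to have been isolated, a background that the labels do not state. All 3 groups spent 30 days at 21 °C under a 9 h light period with 15 h dark and then received 16 h light with 8 h dark, and every array at day 5 comes from such plants. All 3 also carry the erecta mutation of Landsberg, as far as is known. Arrays of these 3 groups at days 0, 3 and 7 are also read below. So are arrays of the accession Columbia (Col) at days 0 and 5 and of lfy-12, mutant in LEAFY, at day 5. The same light periods and temperature are recorded for them. A transcript was a member when limma called it in the same direction in both mutants against Ler (adjusted p under 0.05 in each contrast, from group means fitted over all 40 arrays). Of 22746 probe sets tested, 478 were lower in both mutants and 1029 were higher in both.

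In Arabidopsis, long days stabilise the CONSTANS protein in leaves, and CONSTANS switches on FT. FT protein moves through the phloem to the shoot apex and acts there with the bZIP protein FD, and the apex then stops making leaves and makes flowers. Mutants of either gene flower late in long days, and CONSTANS acts before FT in the same pathway.

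All levels are log2 signals of the array. Differences are mutant minus Ler on that scale, with limma standard errors (SE) and n = 2 arrays per group. The 2 contrasts share the same pair of Ler arrays, so an error in those arrays enters both, and the values of the mutants are given side by side. The labels do not say whether replicate arrays used separate plants, and the p-values cover the spread between these samples alone. In co-2, 1553 probe sets were called higher (6.83% of those tested) and 630 lower (2.77%). For ft-2 they numbered 1789 (7.87%) and 786 (3.46%). The members are 4.52% of all probe sets for the higher group and 2.1% for the lower group. The balance of the directions depended on the scaling. The median difference over all probe sets was 0.06 in both mutants, and after quantile normalization it was near 0, with 914 higher and 995 lower in co-2 and 1137 higher and 1250 lower in ft-2. The share called higher thereby changed from 71.1% to 47.9% in co-2 and from 69.5% to 47.6% in ft-2, and the counts shared by both mutants became 743 lower and 619 higher, which held 474 of the 478 lower members and 617 of the 1029 higher members. Each of the day 5 arrays also weighed on the counts. Of co-2's 2183 calls, leaving out 1 array left 1347 (Ler replicate 1), 1073 (Ler replicate 2), 1358 (co-2 replicate 1) or 755 (co-2 replicate 2). Of ft-2's 2575 calls, the same step left 1538 (Ler replicate 1), 1447 (Ler replicate 2), 1429 (ft-2 replicate 1) or 1165 (ft-2 replicate 2). The shared lower count was then between 250 (without co-2 replicate 2) and 341 (without ft-2 replicate 1), with 284 and 308 without Ler replicates 1 and 2 and 285 without ft-2 replicate 2. The shared higher count lay between 420 (without co-2 replicate 2) and 666 (without ft-2 replicate 1), with 607 and 500 without Ler replicates 1 and 2, 644 without co-2 replicate 1 and 538 without ft-2 replicate 2.

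Array medians lay between 6.91 and 7.07 over the 40 arrays, and the SD of the difference between replicates was 0.16 to 0.20 in the day 5 groups. The 27 probe sets for bacterial spike-in genes had array medians of 3.6 to 3.78, taken here as the background level. On the 6 day 5 arrays, transcripts that mark the Columbia (Col) background lay -0.733% to 0.479% of the way from the Ler to the Col level. On 3 other arrays the opposite background was visible, by 8.94% for replicate 2 of lfy-12 at day 5, 5.47% for replicate 1 of co-2 at day 3 and 4.48% for replicate 1 of ft-2 at day 0, and counts of members and calls named below that use those arrays are given with and without them. The annotation used here assigns no probe set to CONSTANS, FT, LFY, SOC1, AP1 or FLC, and the mutated genes were therefore not checked. Of the 5 measured genes on the list used for leaf photosynthesis, LHCB4.1 and HEMA2 were higher in both mutants and LHCB4.3 was lower in both. Of all probe sets 4.52% and 2.1% were. HEMA2 was the only one of the 5 called between lfy-12 and Col at day 5 (adjusted p = 2.4e-07, limma). Whether HEMA2 marks leaf tissue as the others do was not tested. The LHCB4.1 calls were lost without any 1 of the arrays of their contrast and after quantile normalization. HEMA2 lost its co-2 call without any 1 of the 4 arrays of that contrast. Its ft-2 call was lost without Ler replicate 1 or ft-2 replicate 2. LHCB4.3 lost both calls without Ler replicate 1, and also lost its co-2 call without co-2 replicate 2 and its ft-2 call without ft-2 replicate 1. The mean level of the 5 listed genes, HEMA2 included, was 9.19 and 9.18 in co-2, 9.13 and 9.31 in ft-2, and 8.93 and 9.01 in Ler. All 4 mutant arrays lay above both Ler arrays. Fewer cells of a type and less RNA per cell cannot be told apart in whole apices, and the part of leaf tissue in the results below was not tested. No listed marker of vascular tissue was measured. The root marker EXPA7 was near the lower quartile of the arrays, at 4.99 in co-2, 4.90 in ft-2 and 4.75 in Ler.

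The 478 lower probe sets list 237 genes, and 229 of them list no gene. In 72 of them the difference was over 2-fold in both mutants. WSD1, a wax ester synthase, had levels of 4.05 and 4.1 in co-2 and 3.73 and 4.02 in ft-2, against 7.83 and 7.98 in Ler. The mutants stood close to the background level, so the size of the difference may be a lower limit (log2 -3.83 ± 0.21, adjusted p = 8.26e-13, and -4.03 ± 0.21, adjusted p = 1.15e-13, limma). AT5G44630 was measured at 6.89 and 6.57 in co-2 and at 6.45 and 6.23 in ft-2, against 9.94 and 9.45 in Ler (-2.96 ± 0.19 and -3.35 ± 0.19). BAT1, an acyltransferase that acts on brassinosteroid hormones, stood at 5.18 and 5.37 in co-2, at 5.27 and 5.35 in ft-2, and at 7.63 and 7.06 in Ler (-2.07 ± 0.17 and -2.04 ± 0.17).

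The other 9 of the 12 lower genes that rank first by the smaller of their 2 differences carry only a locus name in the annotation. AT4G00870 had means of 4.40 in co-2 and 4.21 in ft-2, against 6.62 in Ler, and AT4G19430 had 4.57 in co-2 and 4.55 in ft-2, against 6.77 in Ler. AT1G02190 stood at 5.60 in co-2 and 5.46 in ft-2, against 7.32 in Ler, and AT4G26280 at 5.50 in co-2 and 5.00 in ft-2, against 7.05 in Ler. Their differences ran from -2.41 for AT4G00870 in ft-2 to -1.54 for AT4G26280 in co-2. The remaining members of the 12 were AT2G43620, AT5G52390, AT2G17280, AT1G01130 and AT4G14695, with differences from -1.83 to -1.35. Every one of the 12 kept its call in both mutants under each of the 15 alternatives run. Of the probe sets with no gene listed, those with the widest gaps were 259372_at at 4.19 and 4.55 in co-2 and 4.35 and 4.28 in ft-2, against 8.93 and 8.42 in Ler, and 267460_at at 5.87 and 5.59 in co-2 and 5.56 and 5.38 in ft-2, against 9.71 and 9.12 in Ler.

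**Figure D1:**
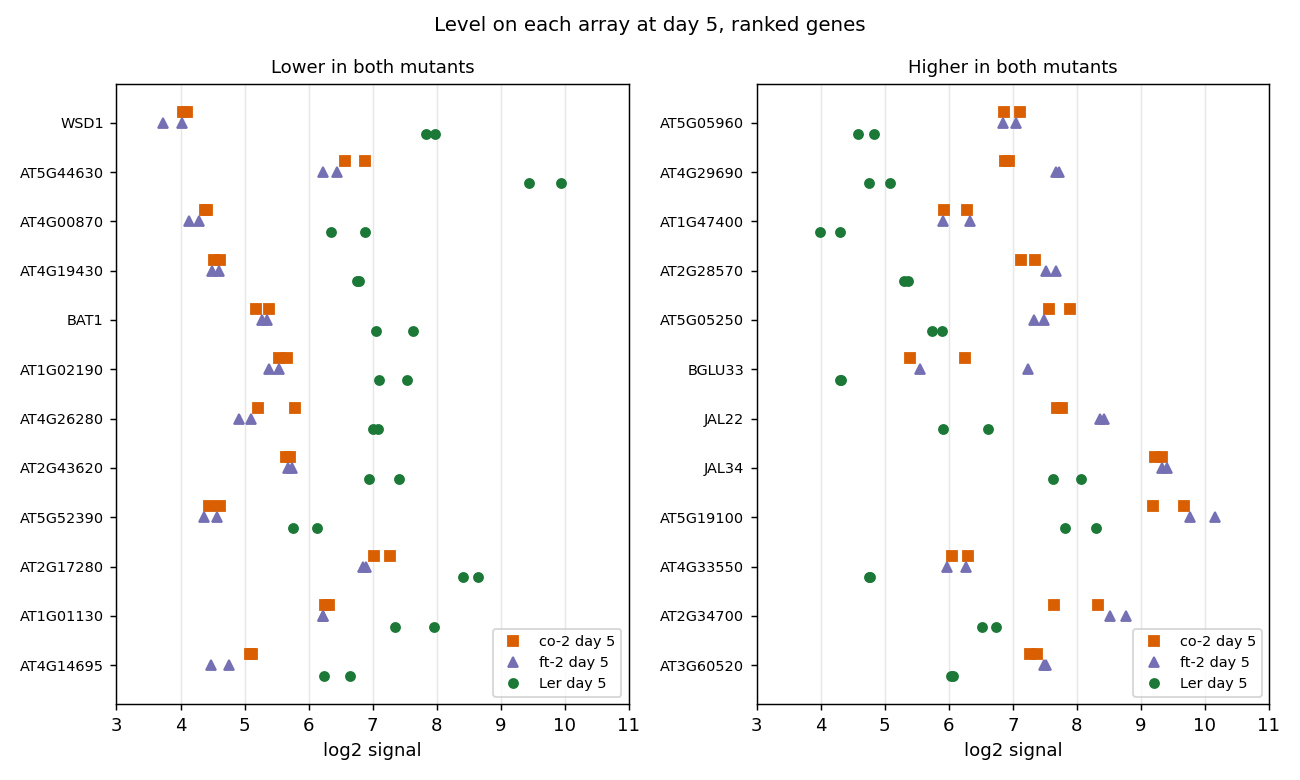
Level (log2 signal) on each of the 6 arrays of day 5 for the 12 lower genes (left) and the 12 higher genes (right) that rank first; each mark is 1 array, squares for co-2, triangles for ft-2 and circles for Ler. WSD1 stands at 3.73 to 4.1 in the mutants and at 7.83 and 7.98 in Ler, and in every gene the mutant marks lie on 1 side of both Ler marks, as the ranking required.

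The 1029 higher probe sets list 510 genes, 504 of them list no gene, and 86 were over 2-fold higher in both mutants. AT5G05960 led them, at 6.86 and 7.11 in co-2 and 6.85 and 7.05 in ft-2, against 4.59 and 4.82 in Ler (2.28 ± 0.38, adjusted p = 0.000196, and 2.25 ± 0.38, adjusted p = 0.000177, limma). AT4G29690 had 6.87 and 6.94 in co-2 and 7.72 and 7.67 in ft-2, against 4.76 and 5.09 in Ler. The ft-2 arrays lay above the co-2 arrays here (2.77 ± 0.17 in ft-2 and 1.99 ± 0.17 in co-2), but the difference between the mutants was not called. JAL22 and JAL34, which encode jacalin-related lectins, were the named family among the first 12. JAL22 stood at 7.77 and 7.69 in co-2 and 8.36 and 8.42 in ft-2, against 5.91 and 6.62 in Ler (1.47 ± 0.24 and 2.12 ± 0.24). JAL34 stood at 9.22 and 9.32 in co-2 and 9.41 and 9.34 in ft-2, against 7.63 and 8.07 in Ler (1.42 ± 0.19 and 1.52 ± 0.19). Of 4 JAL genes measured, these 2 were higher in both mutants, where 4.52% of all probe sets were. The family was counted because these 2 ranked among the first 12, so nothing is read from that count. BGLU33, of the beta-glucosidase family, was the least secure of the 12, with 6.25 and 5.39 in co-2 and 5.55 and 7.23 in ft-2, against 4.32 and 4.3 in Ler. Its call in co-2 (adjusted p = 0.0406) was lost without any 1 of the 4 arrays of that contrast and after quantile normalization, and its call in ft-2 was lost without ft-2 replicate 2. The other 11 kept their calls under every alternative run.

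AT1G47400, AT2G28570, AT5G05250, AT5G19100, AT4G33550, AT2G34700 and AT3G60520 complete the 12 higher genes, with differences from 1.28 to 2.27. AT2G28570 had 7.35 and 7.13 in co-2 and 7.68 and 7.52 in ft-2, against 5.30 and 5.36 in Ler. Among probe sets with no gene listed, 254452_at had the widest gap, at 8.20 and 8.33 in co-2 and 8.15 and 8.43 in ft-2, against 3.77 and 3.66 in Ler, the background level. This gap was there at every time point. The co-2 means stayed between 8.14 and 8.28 and the ft-2 means between 8.10 and 8.29, against 4.33, 3.75, 3.72 and 3.99 in Ler at days 0, 3, 5 and 7. Col stood at 8.34 (day 0) and 8.50 (day 5).

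The floral genes that could be measured fell on both sides. UFO, the F-box cofactor of LEAFY in floral meristems, stood at 5.53 and 5.75 in co-2 and at 6.23 and 5.83 in ft-2, against 7.14 and 6.86 in Ler. It was lower in both mutants (-1.36 ± 0.17, adjusted p = 4.75e-06, and -0.97 ± 0.17, adjusted p = 0.000292, limma). Of 3 measured genes of floral meristem identity it was the only one called, where 2.1% of all probe sets were lower in both mutants. FD, the partner of FT at the apex, had means of 7.40 in co-2 and 7.38 in ft-2, against 7.72 in Ler, and was not called. PUCHI, an AP2-family regulator of primordia, had 5.08 in co-2 and 4.94 in ft-2, against 5.18 in Ler, and was not called either.

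Among 6 measured genes of the photoperiod pathway and floral promoters, 2 were lower and 1 was higher in both mutants, where 2.1% and 4.52% of all probe sets were. The floral lists were chosen with earlier results known, so nothing is read from such counts. AGL42, a MADS-box gene related to SOC1 that promotes flowering, stood at 7.31 and 7.07 in co-2 and 6.86 and 6.67 in ft-2, against 8.42 and 8.34 in Ler (-1.19 ± 0.18 and -1.62 ± 0.18). AGL71, a close relative of AGL42, stood at 4.96 and 4.80 in co-2 and 4.85 and 4.95 in ft-2, against 5.69 and 5.59 in Ler (-0.76 ± 0.11 and -0.74 ± 0.11). AGL72, the third gene of that clade, was near the background at 3.93 in co-2, 3.86 in ft-2 and 4.09 in Ler, and was not called. AGL19, a MADS-box floral promoter known from the response to long cold, went the other way, with 5.78 and 5.90 in co-2 and 5.78 and 5.90 in ft-2, against 4.70 and 4.63 in Ler (1.18 ± 0.15 and 1.17 ± 0.15). AGL24 had 9.23 in co-2, 9.10 in ft-2 and 9.09 in Ler, and GI, a component of the photoperiod pathway upstream of CONSTANS, had 7.62 in co-2, 7.76 in ft-2 and 7.58 in Ler. Neither of the pair was called.

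Of 4 floral repressors measured, 2 were higher in both mutants, where 4.52% of all probe sets were, and nothing is read from that count. SMZ, an AP2-like repressor of FT, stood at 6.66 and 7.01 in co-2 and at 7.13 and 7.08 in ft-2, against 5.88 and 6.15 in Ler (0.82 ± 0.19 and 1.09 ± 0.19). Its call in co-2 was lost without Ler replicate 1 or co-2 replicate 2. AGL18, a MADS-box repressor, stood at 7.47 and 7.56 in co-2 and 7.67 and 7.42 in ft-2, against 6.86 and 6.72 in Ler (0.72 ± 0.14 and 0.75 ± 0.14). SNZ, another AP2-like repressor, had 5.56 in co-2 and 5.80 in ft-2, against 5.22 in Ler, and was called in ft-2 alone (0.58 ± 0.19, adjusted p = 0.0456), a call lost without any 1 of the 6 day 5 arrays. ATC, of the FT and TFL1 family, had 5.33 in co-2, 5.34 in ft-2 and 5.51 in Ler.

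Some other regulators of the floral transition and of organs were also called in both mutants, as were 2.1% (lower) and 4.52% (higher) of all probe sets. The lists used here were chosen with earlier results known, so nothing is read from how many were called. AT1G76580 (SPL16), of the family of SQUAMOSA promoter-binding genes, had 7.78 and 7.74 in co-2 and 7.89 and 7.84 in ft-2, against 8.36 and 8.36 in Ler. Of 6 measured B3-domain genes of the REM family, expressed in reproductive meristems, AT2G16210 (REM24) was lower at 4.5 in co-2 and 4.3 in ft-2, against 5.34 in Ler (-0.84 ± 0.13 and -1.03 ± 0.13). REM22 was lower at 4.83 in co-2 and 4.74 in ft-2, against 5.33 in Ler (-0.50 ± 0.14 and -0.60 ± 0.14), with the calls lost without Ler replicate 2 and, in each mutant, without its own replicate 2. YAB3 and YAB5, which specify the lower side of leaves and floral organs, were higher among 4 measured genes of organ initiation. YAB3 had 9.15 and 9.28 in co-2 and 9.07 and 9.06 in ft-2, against 8.65 and 8.68 in Ler, and YAB5 averaged 7.06 in co-2 and 7.13 in ft-2, against 6.49 in Ler. NUB, a zinc finger gene of organ growth picked after its values were seen, had the widest gap of this kind, at 8.26 and 8.40 in co-2 and 8.32 and 8.10 in ft-2, against 7.15 and 7.05 in Ler (1.23 ± 0.12 and 1.11 ± 0.12). SPT, a bHLH regulator of carpel growth picked in the same way, was lower at 7.16 and 7.23 in co-2 and 7.17 and 7.09 in ft-2, against 8.05 and 7.87 in Ler. The stem cell signal CLV3, at 5.90 in co-2, 5.99 in ft-2 and 5.86 in Ler, and PHV, at 9.99 in co-2, 10.03 in ft-2 and 9.92 in Ler, were not called.

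**Figure D2:**
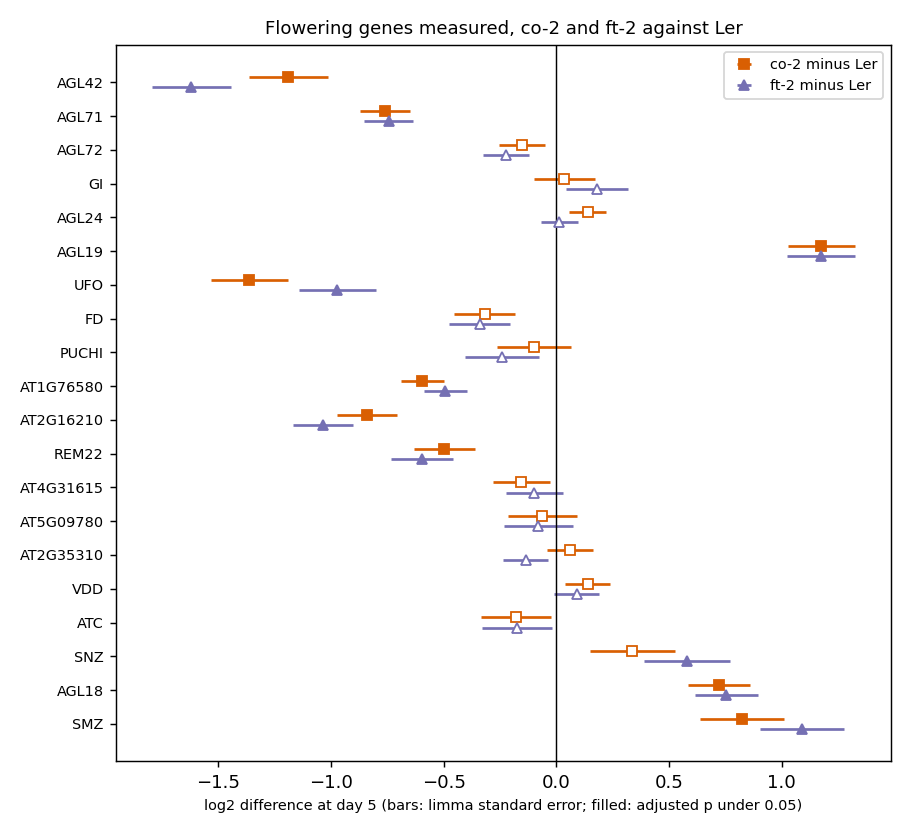
Log2 difference from Ler at day 5, with limma standard errors as bars, for the measured genes of the floral lists; squares are co-2, triangles ft-2, and filled marks passed an adjusted p of 0.05. AGL42, AGL71, UFO, AT1G76580, AT2G16210 and REM22 lie to the left of 0 with filled marks in both mutants, and AGL19, AGL18 and SMZ to the right.

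Endoplasmic reticulum bodies are stores of beta-glucosidase found in the Brassica order. PYK10, the main beta-glucosidase of these bodies, stood at 10.63 and 10.43 in co-2 and 11.06 and 10.99 in ft-2, against 9.21 and 9.84 in Ler (1.00 ± 0.23 and 1.5 ± 0.23). NAI1, the bHLH factor that controls the bodies, averaged 7.92 in co-2 and 7.86 in ft-2, against 7.44 in Ler, and NAI2, a structural protein of them, 8.12 in co-2 and 8.25 in ft-2, against 7.52 in Ler. These calls leaned on the Ler arrays: without Ler replicate 1, PYK10 in co-2 and NAI1 and NAI2 in both mutants were no longer called. The call of PYK10 in co-2 was also lost without co-2 replicate 1. Those of NAI1 were also lost without replicate 2 of the mutant tested and, for ft-2, after quantile normalization, and that of NAI2 in co-2 without either co-2 array or after quantile normalization. BGLU46, known as a glucosidase of lignin precursors, was also higher (0.66 ± 0.13 and 0.55 ± 0.13), its ft-2 call being lost without Ler replicate 2 or ft-2 replicate 1. BGLU45, of the same clade, was lower, at 6.97 and 6.73 in co-2 and 6.84 and 6.75 in ft-2, against 7.58 and 7.77 in Ler (-0.82 ± 0.14 and -0.88 ± 0.14). Of the list's 6 measured genes, BGLU33, NAI1 and NAI2 included, 5 were higher and 1 was lower in both mutants, where 4.52% and 2.1% of all probe sets were. The list was chosen with earlier results known. Of the 20 measured genes whose annotated symbol starts with BGLU, counted after their values were seen, 4 were higher and 1 was lower. That count leaves out PYK10, which carries another symbol.

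BCAT4, the aminotransferase that starts the making of methionine-derived glucosinolates, stood at 11.70 and 11.58 in co-2 and 11.47 and 11.89 in ft-2, against 10.24 and 10.64 in Ler (1.2 ± 0.32, adjusted p = 0.0165, and 1.24 ± 0.32, adjusted p = 0.0113, limma). The calls were lost without Ler replicate 1, without either co-2 array for co-2, and without ft-2 replicate 2 for ft-2. AOP3, a dioxygenase that modifies the side chains of these compounds, stood at 9.91 and 9.89 in co-2 and 9.25 and 9.75 in ft-2, against 8.29 and 8.38 in Ler (1.57 ± 0.28 and 1.16 ± 0.28), and its ft-2 call was lost without Ler replicate 1 or ft-2 replicate 2. The same probe set stood at 4.57 (day 0) and 4.56 (day 5) in Col. MGL, a methionine gamma-lyase picked after its values were seen, was higher too, at 6.57 and 6.87 in co-2 and 6.46 and 6.76 in ft-2, against 5.45 and 5.76 in Ler (1.11 ± 0.19 and 1.01 ± 0.19).

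Of 3 anthocyanin and flavonoid genes measured, 2 were higher in both mutants, where 4.52% of all probe sets were. That list too was chosen with earlier results known. DFR, the reductase that commits flavonoids to anthocyanin, stood at 11.41 and 11.47 in co-2 and 11.56 and 11.45 in ft-2, against 10.17 and 10.42 in Ler (1.14 ± 0.15, adjusted p = 8.4e-06, and 1.21 ± 0.15, adjusted p = 2.73e-06, limma). UF3GT, an anthocyanin glycosyltransferase, stood at 10.43 and 10.47 in co-2 and 10.42 and 10.37 in ft-2, against 9.37 and 9.74 in Ler. BAN, which leads flavonoids to the tannins of the seed coat, was the third gene measured and was not called (5.13 in co-2, 4.97 in ft-2 and 5.18 in Ler). UF3GT lost its ft-2 call without Ler replicate 1. The malonyltransferase AT5MAT and the glucosyltransferase UGT78D2, both of anthocyanin or flavonol modification and both picked after their values were seen, were also higher. AT5MAT averaged 8.87 in co-2 and 8.86 in ft-2, against 7.87 in Ler, and UGT78D2 stood at 9.98 and 10.01 in co-2 and 9.79 and 9.88 in ft-2, against 9.21 and 9.43 in Ler. The UGT78D2 call in ft-2 was lost without Ler replicate 1 or ft-2 replicate 2.

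The UGT family, counted after the values were seen, was split. These enzymes attach sugars to hormones and phenolics. Of 47 measured genes with a UGT symbol, 8 were higher and 3 lower in both mutants, where 4.52% and 2.1% of all probe sets were. UGT84A3 was lower at 4.57 in co-2 and 4.67 in ft-2, against 5.87 in Ler (-1.30 ± 0.16 and -1.2 ± 0.16). UGT84A1 was lower at 5.52 in co-2 and 5.29 in ft-2, against 6.41 in Ler (-0.89 ± 0.18 and -1.12 ± 0.18), and both are known to act on hydroxycinnamates. UGT71C3 was the third (-0.93 ± 0.15 for co-2, -0.94 ± 0.15 for ft-2). Among the 8 higher ones were UGT76C1 and UGT76C2, which inactivate cytokinins (0.72 ± 0.14 and 0.51 ± 0.10 in co-2, and 1.03 ± 0.14 and 0.33 ± 0.10 in ft-2). UGT88A1, UGT85A5, UGT85A2, UGT76E11, UGT73D1 and UGT78D2 were the others, between 0.50 and 0.92.

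Hormone and stress lists held few measured genes. Higher in both mutants were 1 of 2 cytokinin genes, 1 of 4 auxin response genes and 1 of 4 cold and abiotic stress genes. Of all probe sets 4.52% were. BAT1, given above, was the 1 brassinosteroid gene measured and was lower in both, as were 2.1% of all probe sets. RR16, a type-A response regulator of cytokinin, averaged 5.78 in co-2 and 5.57 in ft-2, against 4.87 in Ler. Its calls were lost without Ler replicate 1, in co-2 also without co-2 replicate 1, and in ft-2 also without Ler replicate 2 or either ft-2 array. The auxin-conjugating enzymes GH3.3 (0.39 ± 0.10 and 0.46 ± 0.10) and GH3.17 (0.76 ± 0.12 and 0.62 ± 0.12) were higher, GH3.17 being picked after its values were seen, and the GH3.3 call in co-2 was lost without Ler replicate 2 or co-2 replicate 2. COR47, a dehydrin induced by cold, averaged 7.27 in co-2 and 7.06 in ft-2, against 6.31 in Ler. The COR47 calls were lost without Ler replicate 1, in co-2 also without co-2 replicate 2, and in ft-2 also without Ler replicate 2, either ft-2 array or after quantile normalization. LTI30, a dehydrin like COR47, was called in ft-2 alone (5.18, with 4.87 in co-2 and 4.28 in Ler). That call was lost without either Ler array, without either ft-2 array, and when only the 24 arrays of Ler, co-2 and ft-2 were fitted. COR15A and COR15B, near the lower quartile at 4.53 to 4.88, were called in neither mutant. None of the 4 gibberellin genes measured (GID1A, GID1B, GID1C and SLY1) and none of the 4 SWEET sugar transporters measured from the sugar list was called by limma. At an unadjusted p under 0.05 there were 0 of 4 and 1 of 4 in co-2 and 0 of 4 for both in ft-2. Of the 14 measured genes with a SWEET symbol, 0 were lower and 0 higher in both mutants. Of 6 genes of jasmonate response and defensins none was called in both mutants (unadjusted, 0 in co-2 and 1 in ft-2). THI2.1, a thionin, was called in ft-2 alone, a call lost without Ler replicate 1, Ler replicate 2 or ft-2 replicate 1. Of the 73 list genes that could be measured, 10 were lower in both mutants and 19 were higher in both, against 2.1% and 4.52% of all probe sets, and no inference is drawn from that since the lists were chosen with results known.

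The members were then read in comparisons whose levels did not choose them. The fit still takes 1 spread per probe set from all 40 arrays, day 5 included, so a probe set with a small spread is called more readily on every day. At day 7, on separate mutant and Ler arrays, 391 of the 478 lower members were lower in co-2 (81.8%, against 5.9% of all probe sets) and 408 were lower in ft-2 (85.4%, against 7.1%). Of the 1029 higher members, 720 were higher in co-2 (70%, against 11%) and 764 in ft-2 (74.2%, against 12.7%). Both mutants shared the call for 374 of the lower and 671 of the higher members, where 4.81% and 8.54% of all probe sets were called so. At day 3, 132 of the lower members were lower in co-2 (1.13% of all) and 161 in ft-2 (1.63% of all), and 179 of the higher members were higher in co-2 (1.9% of all) and 218 in ft-2 (3.07% of all). At day 0 the lower members called were 40 in co-2 (0.769% of all) and 52 in ft-2 (0.734% of all), and the higher ones 188 in co-2 (2.94% of all) and 164 in ft-2 (2.12% of all). At day 3 the shared calls were 114 lower (0.8% of all) and 124 higher (1.09% of all), and at day 0, before the move, 26 lower (0.251% of all) and 107 higher (0.98% of all). Without the 3 arrays that carry transcripts of the other accession, the lower members called at day 3 were 63 in co-2 and 173 in ft-2 and the higher ones 111 and 237. At day 0 the lower members were then 44 in co-2 and 26 in ft-2, and the higher ones 207 and 75. Without those arrays the shared calls numbered 61 lower and 87 higher for day 3, and 15 lower and 52 higher for day 0. The day 7 counts were then 376 and 684. At day 0, 412 of the lower (86.2%) and 784 of the higher members (76.2%) were called in neither mutant in the direction of day 5. On all 4 days, 15 of the lower and 55 of the higher members were called in both mutants (7 and 26 without the 3 arrays). Shares of all probe sets were not counted for neither mutant, for all 4 days or without the 3 arrays. Nothing is therefore read from those counts.

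Time courses of single members are given as a description, since the Ler level at day 5 helped to choose them. WSD1 had means of 3.98, 3.93, 4.07 and 4.75 in co-2 at days 0, 3, 5 and 7 and of 4.19, 3.97, 3.88 and 4.35 in ft-2, against 4.48, 5.21, 7.91 and 9.23 in Ler. AT5G44630 was close in the 3 genotypes at day 0 (5.32 in co-2, 5.33 in ft-2 and 5.29 in Ler), but it did climb in the mutants, to 8.23 in co-2 and 8.02 in ft-2 at day 7, against 10.33 in Ler. Its difference from Ler was -2.05 ± 0.19 in co-2 and -1.85 ± 0.19 in ft-2 at day 3, and -2.1 ± 0.19 and -2.31 ± 0.19 at day 7. BAT1 and UFO were called at days 5 and 7, and neither was called at day 3. UFO differed by -1.58 ± 0.17 in co-2 and -1.54 ± 0.17 in ft-2 at day 7. REM22 stood at 4.95 in co-2 and 5.00 in ft-2 at day 7, against 7.81 in Ler, a difference of -2.86 in co-2 and -2.81 in ft-2 where day 5 had -0.50 and -0.60. AGL42 had higher means at day 7 than at day 0 in all 3 genotypes and was called lower in both mutants at days 3, 5 and 7. Its day 3 call in co-2 was lost without the 3 arrays that carry transcripts of the other accession (-0.69, adjusted p = 0.078, limma).

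PYK10 had means of 11.07, 10.67, 10.53 and 9.66 in co-2 at days 0, 3, 5 and 7 and of 10.77, 10.74, 11.02 and 10.18 in ft-2, against 10.75, 10.48, 9.53 and 7.90 in Ler. DFR stayed between 10.94 and 11.50 in both mutants throughout, against 11.29, 11.05, 10.30 and 8.78 in Ler. BCAT4 was called at days 5 and 7 and in neither mutant earlier, with 10.22 in co-2 and 11.26 in ft-2 at day 7, against 7.79 in Ler. AOP3 was no longer called in either mutant at day 7, though both mutant means still lay above Ler (8.13 in co-2, 8.59 in ft-2 and 7.88 in Ler). A missed call does not show equal levels. AT2G28570 and AT4G29690 differed from the start, with 7.37 and 6.48 in co-2 and 7.30 and 6.45 in ft-2 at day 0, against 5.56 and 5.15 in Ler. BGLU45 too was already lower at day 0 (-0.76 in co-2 and -0.61 in ft-2) and was not lower at day 7, when the difference was 0.25 in co-2 (not called) and 0.44 in ft-2 (called higher).

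**Figure D3:**
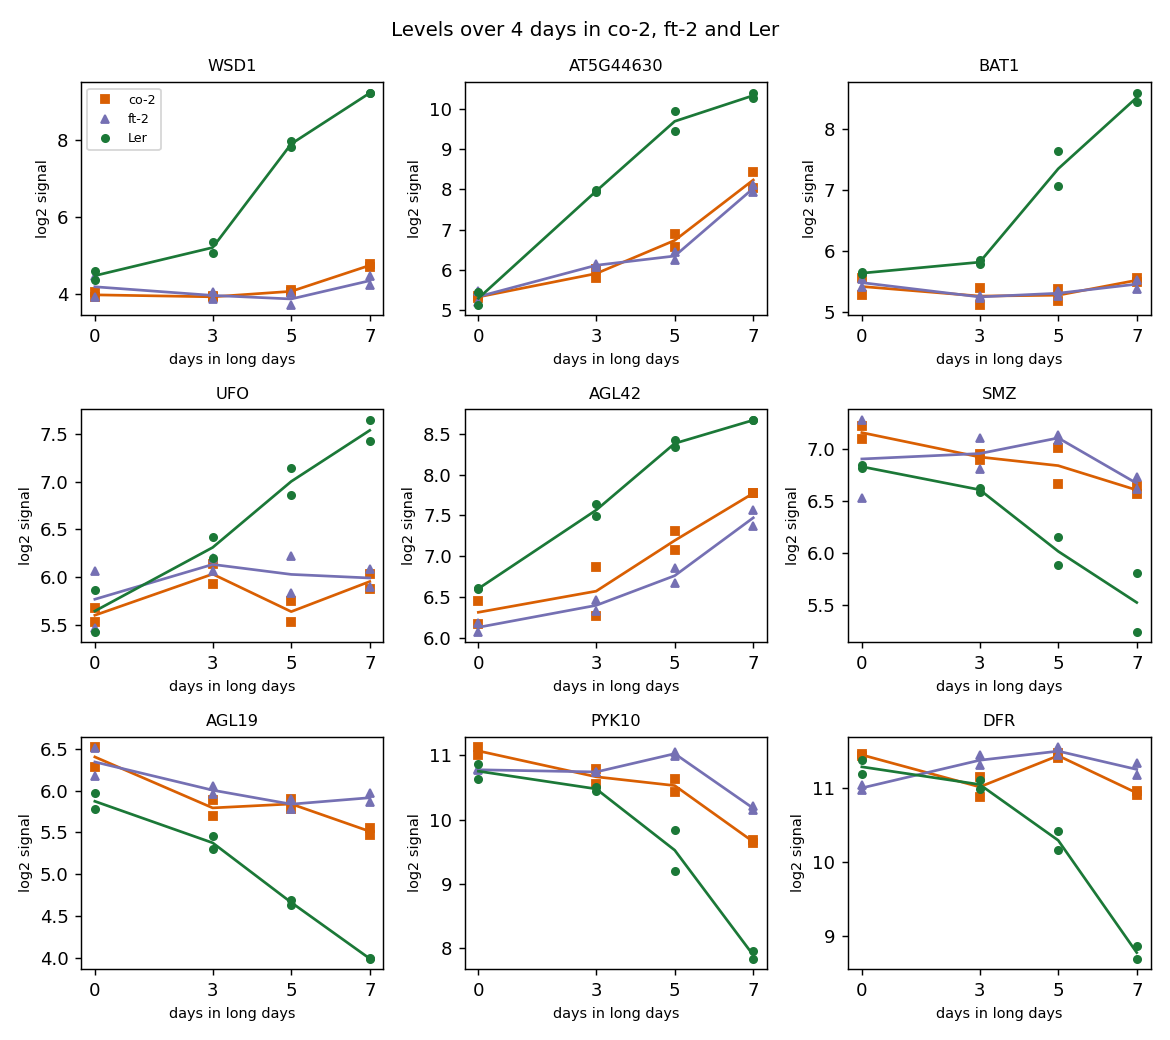
Log2 signal over days 0, 3, 5 and 7 in long days for 9 genes; each mark is 1 array and lines join the means of co-2 (squares), ft-2 (triangles) and Ler (circles). WSD1, BAT1 and UFO climb in Ler and stay low in the mutants, AT5G44630 and AGL42 climb in all 3 genotypes with the mutants below Ler, and SMZ, AGL19, PYK10 and DFR decline most in Ler.

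For the lower members, the level of the mutants at day 5 was, in the median, -0.05 (co-2) and -0.08 (ft-2) from Ler at day 0 and -0.30 and -0.32 from Ler at day 3. At day 7 the mutants stood 0.12 (co-2) and 0.07 (ft-2) from Ler at day 0. For the higher members the mutants at day 5 stood 0.16 (co-2) and 0.18 (ft-2) above Ler at day 0, and at day 7 only 0.02 and 0.07 above it. These medians describe the members against Ler arrays of other days. Between day 0 and day 5 in Ler itself, 326 of the 478 lower members were called higher (8.63% of all probe sets) and 531 of the 1029 higher members were called lower (9.08% of all), on the same day 5 arrays that chose them. In co-2, 48 of the lower members were higher at day 5 than at day 0 (2.48% of all) and 169 of the higher members were lower (3.39% of all), and in ft-2 these counts were 43 (3.11% of all) and 128 (3.74% of all). The day 5 arrays of all 3 genotypes chose the members, so nothing is read from any of these counts.

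Columbia levels did not enter the contrasts that chose the members, though Columbia arrays share in the estimate of spread. From day 0 to day 5 in Col, 191 of the 478 lower members were called higher (40%, against 4.45% of all probe sets) and 5 were called lower. Of the 1029 higher members, 335 were called lower (32.6%, against 5.99%) and 11 were called higher. Of the 12 first lower genes, 9 were higher in Col at day 5 than at day 0, among them AT5G44630 by 3.14 ± 0.19 and WSD1 by 2.13 ± 0.21. Of the 12 first higher genes, 8 were lower at that time, and BCAT4 had a difference of -3.16 ± 0.32 between the days. DFR did not (-0.25 ± 0.15, not called). The lfy-12 mutant lacks the floral regulator LEAFY and is a Columbia allele as far as is known. In it, 50 of the lower members were below Col at day 5 (10.5%, against 1.53% of all probe sets) and 74 of the higher members were above it (7.19%, against 0.761%). In the opposite direction, 1 of the lower members was above Col (0.209%, against 0.761%). Of the higher members, 17 were below Col (1.65%), near the 1.53% of all probe sets. Without lfy-12 day 5 replicate 2 and the 2 other arrays with foreign transcripts, 27 lower members were below Col, and 19 higher members were above Col and 15 below it. The share of all probe sets was not counted for that fit, so nothing is read from these reduced counts. WSD1 was lower in lfy-12 than in Col (4.64 in lfy-12 against 6.48 in Col), and AGL18 was higher (7.14 in lfy-12 against 6.63 in Col). Without the 3 arrays the WSD1 call held (adjusted p = 0.00015, limma) and the AGL18 call did not (adjusted p = 0.15). AT5G44630 and UFO were not called with or without them.

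**Figure D4:**
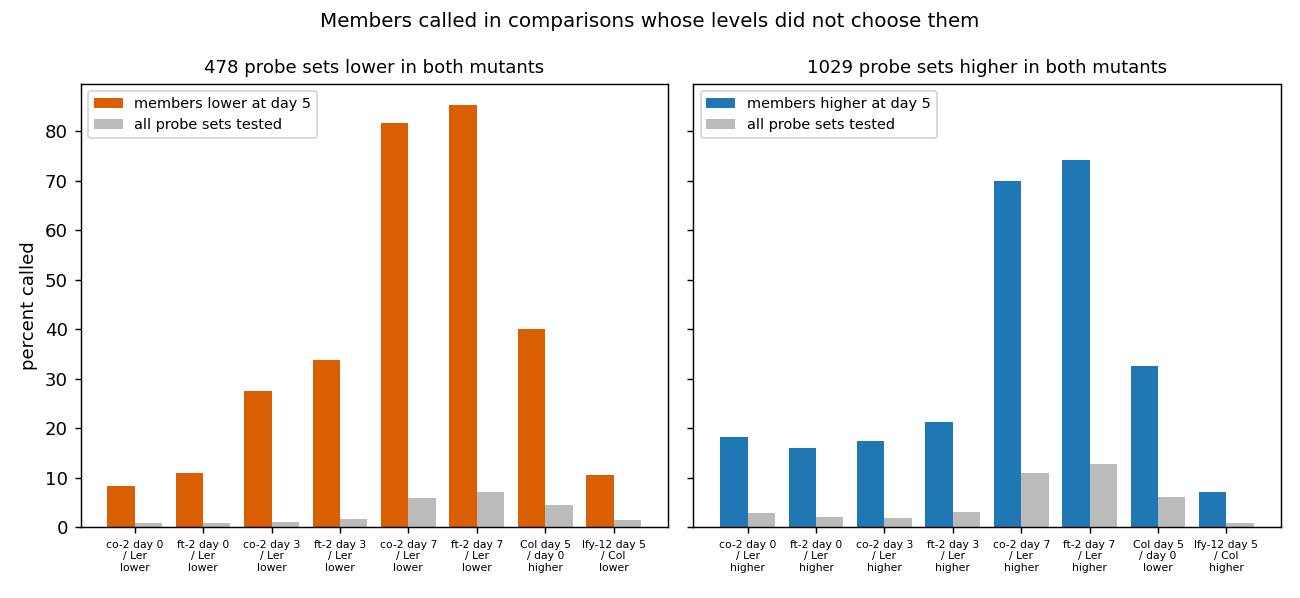
Percent of the 478 lower (left) and 1029 higher (right) members called in the direction written under each pair of bars, beside the percent of all 22746 probe sets (grey), in comparisons whose levels did not choose them. The lower members reach 81.8% and 85.4% at day 7, and 40% were higher at day 5 than at day 0 in Col.

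A direct contrast of the mutants, which uses no Ler level, called few transcripts. In ft-2, 27 probe sets were higher (0.119% of those tested) and 8 lower (0.0352%) than in co-2 at day 5, a total of 35 by limma, with 1169 at an unadjusted p under 0.05. A probe set that missed the threshold is not thereby shown to be equal. The total was 12 or 18 without co-2 replicate 1 or 2, 10 or 17 without ft-2 replicate 1 or 2, and 75 when only the 6 day 5 arrays were fitted. These probe sets name 16 genes higher and 2 lower in ft-2. AT1G23850 stood at 8.10 and 7.76 in ft-2, against 6.85 and 6.80 in co-2, with Ler at 6.82 and 7.13. AT2G46730 stood at 6.41 and 6.37 in ft-2, against 5.33 and 5.46 in co-2, with Ler at 6.26 and 6.09, so that co-2 was the group apart. AT2G21640 stood at 8.25 and 8.16 in ft-2, against 7.20 and 7.31 in co-2, with Ler at 7.31 and 7.59. AT1G06620 stood at 7.76 and 7.50 in ft-2, against 6.49 and 6.83 in co-2, with Ler at 6.07 and 6.27, and its call was lost without any 1 of the 4 mutant arrays. Lower in ft-2 were AT2G40980, at 7.83 and 7.87, against 8.51 and 8.45 in co-2, with Ler at 8.60 and 8.62, and AT3G28500, at 8.99 and 8.66, against 9.48 and 9.47 in co-2, with Ler at 10.86 and 10.72. AT3G28500 was the one gene of the 18 that was also a shared member, lower in both mutants and lowest in ft-2, and its call between them was lost without either co-2 array or without ft-2 replicate 2.

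MYC3, a bHLH factor of jasmonate signalling, stood at 9.39 and 9.62 in ft-2, against 8.78 and 8.69 in co-2, with Ler at 8.55 and 8.64 (ft-2 minus co-2 0.77 ± 0.10, adjusted p = 0.000132, limma). UBP21, a ubiquitin protease gene, differed by 0.64 ± 0.09 and AT5G46780 by 0.72 ± 0.11. In the RefSeq gene order 1 protein-coding gene lies between UBP21 and MYC3, and 1 between MYC3 and AT5G46780. These 3 of the 16 higher genes thus lie close together on chromosome 5, without being direct neighbours. APS4, an ATP sulfurylase gene (0.65 ± 0.11), and HMT-1, a homocysteine methyltransferase gene (0.58 ± 0.10), were also higher in ft-2. The APS4 call was lost without any 1 of the 4 mutant arrays, and the HMT-1 call without co-2 replicate 1 or either ft-2 array. AT1G23850 and AT5G46780 were no longer called without ft-2 replicate 1. Of the 18 genes, 7 were called the same way between the mutants at day 0, 10 at day 3 and 11 at day 7, and 7 at all of these times. The 7 were AT2G46730, AT2G21640, UBP21, MYC3, AT5G46780, HMT-1 and AT2G40980. Without the 3 arrays that carry transcripts of the other accession the counts were 6 at day 0, 5 at day 3, 11 at day 7 and 5 at all of these times, AT2G46730 and HMT-1 being no longer called at all of them. In ft-2 minus co-2, the MYC3 values for days 0, 3 and 7 were 0.80, 0.73 and 0.87, and those of AT2G40980 were -0.49, -0.66 and -0.59. The share of all probe sets called higher in ft-2 was 1.12%, 0.106% and 0.193% at days 0, 3 and 7, and the share called lower was 0.361%, 0.044% and 0.044%. Without the 3 arrays these were 1.01%, 0.0264% and 0.207% higher and 0.18%, 0.0703% and 0.044% lower.

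**Figure D5:**
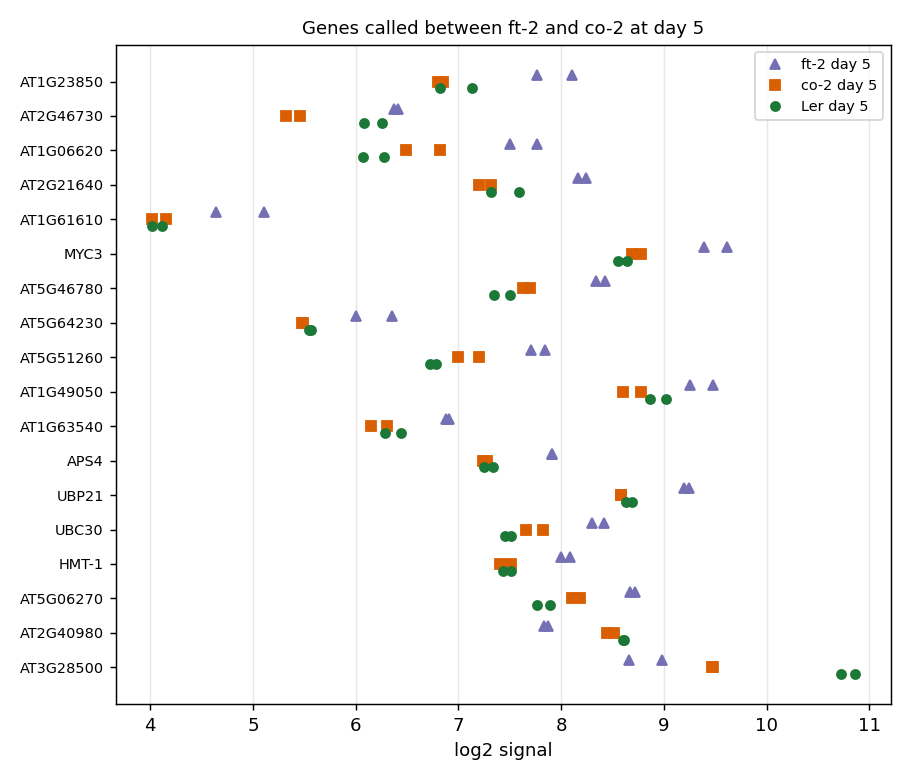
Level (log2 signal) at day 5 of the 18 genes called between ft-2 and co-2; each mark is 1 array, triangles for ft-2, squares for co-2 and circles for Ler. The ft-2 marks lie apart from co-2 and Ler in most genes, in AT2G46730 the co-2 marks are the low ones, and in AT3G28500 both mutants lie below Ler at 10.86 and 10.72.

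The threshold passes through small differences. Just inside it among lower genes lay AT5G45960 (-0.35 in co-2 and -0.51 in ft-2, larger adjusted p = 0.0496 by limma) and just outside AT5G20110 (-0.40 in both, adjusted p = 0.0505). Among higher genes AT1G52770 lay just inside (0.47 and 0.50, adjusted p = 0.04997) and AT1G77200 just outside (0.38 and 0.34, adjusted p = 0.0510). The median difference of the lower members was -0.61 in both mutants and that of the higher members 0.53 in both, against 0.06 over all probe sets. These same differences chose the members, so the medians only describe their size.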

How the data were processed

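The authors deposited 1 series table of 40 ATH1 arrays. Neither unit nor normalization is stated in the labels used here. The authors' deposited values (3.03 to 13.63) were taken to be on a log2 scale and entered the fits unchanged, without a pseudocount: on a natural log scale the maximum would correspond to 834443, above the 65535 that scanners of that type record. After 64 control probe sets were left out, 22746 were fitted with limma 3.58.1 in R 4.3.3 (20 group means, 20 residual degrees of freedom, empirical Bayes with an intensity trend). Calls used a two-sided Benjamini-Hochberg adjusted p under 0.05 per contrast.

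Names came from the platform's list, joined to RefSeq: 13513 probe sets list 1 gene, 503 several and 8730 none. Per gene the probe set with the highest mean was used. The genes named were the first 12 lower and 12 higher by the smaller of the 2 absolute differences, with no overlap of mutant and Ler arrays, the first 4 each way between ft-2 and co-2 (2 lower existed), list members called in both mutants and all measured floral genes, and at most 2 probe sets without a gene each way. Of 517 genes listed, 73 were measured. The lists of floral organ identity (NZZ), salicylate and senescence (SAG101), indole glucosinolates (UGT74B1) and cell division (PRL) had 1 measured gene each and no shared call. None of the genes on the clock, terpene synthase and vascular lists had a probe set that lists it alone. This holds for the listed genes and not for every gene of these kinds. Members and lists were chosen with earlier results of these data known; genes outside the rule are marked as picked after their values were seen, and the contrasts of ft-2 and co-2 on days 0, 3 and 7 were also added then. Alternatives were quantile normalization, a filter on low values, no trend, fewer arrays, a replicate block and leaving out each day 5 array. The share of the other accession's transcripts was read from probe sets over 3 log2 units apart between backgrounds. The fitting steps were also run on simulated data with known differences. Promoter motifs were not analysed here.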

Additional observations from a re-analysis of the deposited data

Results flagged for a closer look

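The direct comparison of the mutants gave 6 genes that the rule named, each because the difference between ft-2 and co-2 at day 5 itself passed the test (limma, 2 arrays per group, values in log2 units with SE). In ft-2 minus co-2, AT1G23850 was higher by 1.11 ± 0.16 (adjusted p = 0.000629), AT2G46730 by 1.00 ± 0.15 (adjusted p = 0.000629), AT1G06620 by 0.97 ± 0.19 (adjusted p = 0.0245) and AT2G21640 by 0.95 ± 0.14 (adjusted p = 0.000632). AT3G28500 had a difference of -0.65 ± 0.13 (adjusted p = 0.0245) and AT2G40980 of -0.63 ± 0.07 (adjusted p = 2.7e-05). Over the alternatives run, the adjusted p reached 0.0444 for AT2G46730, 0.0464 for AT2G21640 and 0.0084 for AT2G40980, which kept their calls. It reached 0.0885 for AT1G23850 without ft-2 replicate 1, 0.458 for AT1G06620 and 0.605 for AT3G28500.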

How the results depend on the processing

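Leaving out 1 array of day 5 gave 755 to 2116 calls in co-2 and 1165 to 2498 in ft-2, the highest being without an array of the other mutant, and 250 to 341 probe sets lower in both, 420 to 666 higher in both and 10 to 40 between ft-2 and co-2 (40 without either Ler array, 10 to 18 without a mutant array). The lone array of such a group was assumed to vary like the other groups. Quantile normalization gave 743 lower and 619 higher in both, and 67 in place of 107 higher members called in both mutants at day 0. The ft-2 and co-2 total was 75 from the 6 day 5 arrays alone and 91 with a replicate block on those arrays. A filter on low values left 16 of 26 lower members called at day 0. Without the 3 arrays with transcripts of the other accession the counts were 15 lower and 52 higher at day 0, 61 lower at day 3, and 27 lower and 19 higher in lfy-12. The counts for each mutant then also moved by over 1.5 times for co-2 at day 3 (63 in place of 132 lower, 111 in place of 179 higher) and ft-2 at day 0 (26 in place of 52, 75 in place of 164). The cause of these shifts was not tested, beyond the fewer arrays or probe sets fitted. Replicate numbers were not shown to pair the arrays (correlations of deviations 0.044, 0.143 and 0.043), and with them as a replicate block over 40 arrays the counts were 2237 in co-2, 2612 in ft-2, 481 lower in both, 1061 higher in both and 37 between the mutants. No gene or probe set named reversed with a call. With 2 arrays per group, an outlier test could not be run, and signals near the bacterial controls limit the size of a fold.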
